A study of Mus musculus with 10 samples.

Results

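The genes described here carry symbols of mitochondrial ribosomal proteins. All but Mrps36, which is kept in the counts, encode proteins of the mitochondrial ribosome. The genes were taken as every row of the deposited table whose mouse symbol starts with Mrpl or Mrps followed by a digit. Predicted pseudogenes were left out, which gave 78 of 22053 gene identifiers. The annotation held 5 pseudogene symbols of the family, and 0 of them were in the table. RNA of mouse kidney glomeruli, the tufts in which blood is filtered, was sequenced in 5 Col4a3 wild-type libraries and 5 libraries with the Col4a3 missense variant p.G799R. Col4a3 encodes the alpha 3 chain of type IV collagen, part of the glomerular basement membrane. No libraries from animals given tauroursodeoxycholic acid, the bile acid of the series title, were analysed here. Zygosity, strain, sex, age and the isolation procedure are not given in the labels. Whether each library is a separate mouse is not stated either, so every p-value rests on the spread between libraries and part of that spread may be technical.

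The mitochondrial ribosome translates the few mRNAs of the mitochondrial genome, all of which encode subunits of the respiratory chain and ATP synthase. Its RNAs are made inside the organelle, whereas all of its proteins are encoded in the nucleus, made in the cytosol and imported. Some of these proteins have relatives in the bacterial ribosome and others are found only in mitochondria. In the kidney, tubule cells are rich in mitochondria because they drive salt and solute transport, and the cells of the glomerulus hold fewer of them.

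Promoters of 4 genes are shown because these genes lie at the ends of the range of differences described below, with Mrpl12 and Mrpl34 at the low end and Mrpl52 and Mrpl17 at the high end. The genes were chosen for this after their values were seen. The stretches are the exon-free bases upstream of the transcription start in RefSeq, in build GRCm38.p6, written 5′ to 3′ on the strand of the gene, and capitals mark a motif. The motifs are CGCANGCG, the core of the site bound by the respiratory factor NRF1, and CCGGAAG, bound by ETS factors, both searched on both strands. Mrpl12 is at chr11:120484387-120484612 (plus strand), Mrpl34 at chr8:71464676-71464925 (plus strand), Mrpl17 at chr7:105811100-105811337 (minus strand) and Mrpl52 at chr14:54426659-54426908 (plus strand).
Mrpl12: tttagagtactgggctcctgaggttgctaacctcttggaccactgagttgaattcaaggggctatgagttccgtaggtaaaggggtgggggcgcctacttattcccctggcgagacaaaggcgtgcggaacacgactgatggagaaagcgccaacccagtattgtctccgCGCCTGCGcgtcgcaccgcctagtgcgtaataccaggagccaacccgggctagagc
Mrpl34: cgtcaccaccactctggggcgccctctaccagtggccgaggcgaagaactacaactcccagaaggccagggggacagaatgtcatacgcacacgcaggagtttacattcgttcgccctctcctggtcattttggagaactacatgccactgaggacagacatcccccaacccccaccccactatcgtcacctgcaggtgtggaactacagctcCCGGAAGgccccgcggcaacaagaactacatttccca
Mrpl17: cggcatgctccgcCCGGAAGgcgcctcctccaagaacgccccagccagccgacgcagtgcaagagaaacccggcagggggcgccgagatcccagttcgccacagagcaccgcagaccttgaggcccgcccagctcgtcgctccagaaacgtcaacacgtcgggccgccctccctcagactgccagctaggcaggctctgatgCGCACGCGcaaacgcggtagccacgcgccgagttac
Mrpl52: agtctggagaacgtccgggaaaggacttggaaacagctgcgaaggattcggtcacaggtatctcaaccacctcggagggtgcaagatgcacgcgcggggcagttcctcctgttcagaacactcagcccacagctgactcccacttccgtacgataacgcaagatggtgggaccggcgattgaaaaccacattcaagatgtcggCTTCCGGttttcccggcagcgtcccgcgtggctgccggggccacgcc
Distances are counted from the RefSeq start. The Mrpl12 and Mrpl17 stretches stop 24 and 12 bases short of it, and those of Mrpl34 and Mrpl52 reach it. The Mrpl12 stretch holds the NRF1 motif on the opposite strand, beginning 80 bases before the start. The Mrpl17 stretch holds an NRF1 motif 48 bases and an ETS motif 237 bases before the start. Mrpl34 has an ETS motif 37 bases before its start, and Mrpl52 has one on the opposite strand, 47 bases before its start. Both ends of the range thus carry these letters.

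RefSeq promoters were found for 69 of the 78 genes, with 75 windows of 250 upstream bases in all. The NRF1 motif was in 17 of these windows (22.7%), against 6.76% of 32851 windows of all genes and 9.17% of 21262 windows of protein-coding genes. The ETS motif was in 18 (24.0%), against 6.91% and 8.98%. The motif AAGATGGCG of the factor YY1 was in 2 windows (2.67%), against 0.606% and 0.720%. CCAAT was in 28 (37.3%), against 33.8% and 35.4%. The windows of these genes had a median GC content of 58.4%, compared with 55.6% for protein-coding genes and 52.4% for all genes. The shares depend on the window: in windows of 300 bases, which add the first bases after the start, YY1 was in 8 of 75 (10.7%, against 1.40% of all genes), ETS in 26 (34.7%, against 8.86%) and NRF1 in 20 (26.7%, against 8.21%). A match describes the letters in the window and is not a measured binding site.

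Between groups the labelled tissue was checked against marker lists. All 20 podocyte markers were higher in G799R (median log2 difference 0.68), as were 16 of 20 glomerular endothelial markers (0.77) and 12 of 15 mesangial markers (0.82). Of 33 tubule markers, 32 were lower (−2.33). By the same test, described below, 40.5% of all 13117 genes tested were higher and 19.3% lower (median 0.17). Under median-of-ratios scaling 15 podocyte, 15 endothelial and 11 mesangial markers were higher, and 1 mesangial marker was lower. Of all genes tested, 3055 were higher under that scaling. The tubule score, the mean log2(FPKM + 1) of those markers, ranged from 5.99 to 6.70 among wild-type and from 3.59 to 4.47 among G799R libraries. FPKM is a fragment count scaled for transcript length and library total. In such bulk samples, fewer cells of a type and less RNA per cell cannot be told apart. The tubule score separated the genotypes completely, so its part in the differences below and that of the genotype cannot be told apart. FPKM sums per library ran from 320720 to 340875, and absolute depth is unknown.

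Mitochondrial ribosomal protein mRNAs were lower in G799R glomeruli or did not pass the test, and none was called higher. Of the 78 genes, all of which passed the filter of a mean of at least 0.5 FPKM, 38 fell (48.7%), 0 rose and 40 did not pass the threshold. The test was limma on log2(FPKM + 1), with p-values adjusted over 13117 genes by the Benjamini-Hochberg method and called at 0.05. Across all genes tested, 19.3% fell and 40.5% rose. At an unadjusted p under 0.05, 40 of the family were lower and 2 were higher, against 2687 lower and 5765 higher of all 13117 genes. The median log2 difference, G799R minus wild type, was −0.22 for the family and 0.17 for all genes tested.

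The falls were mostly small. The 38 genes that fell did so by 1.17-fold to 2.36-fold in mean FPKM, with a median log2 difference of −0.36. A fall of at least 1.5-fold was seen in 8 genes and of at least 2-fold in 2. The 40 genes not called ranged from −0.35 to 0.34 (median −0.03), with 23 below 0 and 17 above. Their SEs were like those of the called genes, with medians of 0.0916 and 0.0894. In 21 genes (26.9%), every G799R library was below every wild-type library, against 15.7% of all genes tested. In 0 genes did all G799R values exceed all wild-type values.

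**Figure D1:**
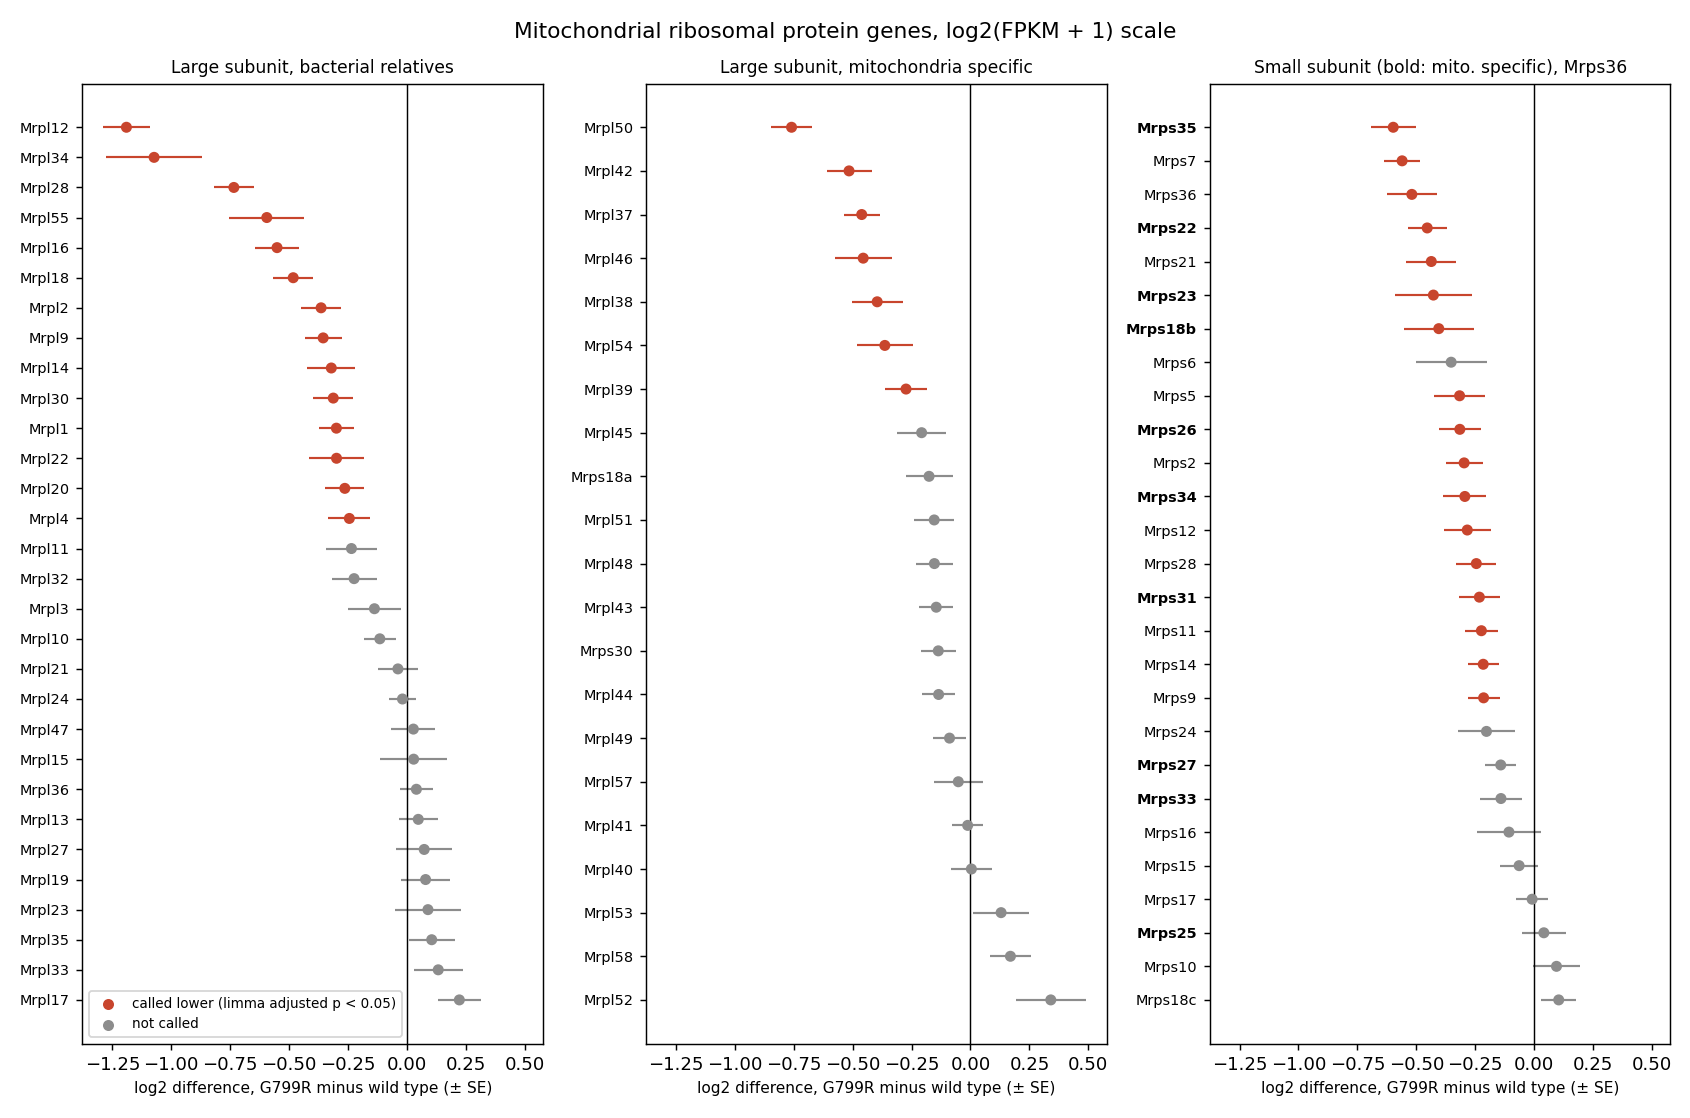
Log2 difference, G799R minus wild type on the log2(FPKM + 1) scale (horizontal axis), for each of the 78 genes (vertical axis), in panels by subunit and origin, with bars for the SE from limma and red points for genes called lower. The genes run from Mrpl12 at −1.19 to Mrpl52 at 0.34, with 61 below 0 and 17 above.

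The number of genes called depended on how the libraries were scaled. Median-of-ratios scaling moved the median of all genes from 0.17 to 0.02, and 55 of the family then fell (all genes 25.5%). Quantile normalisation gave 46 (all genes 20.8%). Scaling to the glomerular markers moved the median of all genes to −0.45 and gave 77 (all genes 67.5%). Under each of these scalings 0 of the family rose, and all 38 genes called lower as deposited were also called lower. Of the genes named below as not passing, Mrpl10, Mrpl44, Mrps6 and Mrps18a were called lower under all 3 scalings. Mrpl24, Mrpl45 and Mrps27 were called lower under median-of-ratios and glomerular marker scaling.

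Mrpl12 fell most. It encodes the stalk protein of the large subunit, the relative of bacterial L12 that recruits translation factors. Its identifier is ENSMUSG00000039640 and its position in GENCODE M21 (build GRCm38) is chr11:120484613-120489065, plus strand. The wild-type libraries had 34.6, 41.0, 35.2, 47.1 and 39.2 FPKM, and the G799R libraries 15.9, 17.8, 18.8, 14.1 and 16.9 FPKM. The lowest wild-type library was thus well above the highest G799R library. The log2 difference was −1.19 ± 0.10 (SE), a 2.36-fold fall (limma adjusted p = 3.71e-06). Mrpl12 made up 2.78% of the summed FPKM of the family in wild type and 1.39% in G799R.

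Mrpl10 encodes the protein on which the Mrpl12 copies are mounted, at the base of the same stalk. It had 20.0, 20.4, 20.8, 23.9 and 19.5 FPKM in wild type, and 20.5, 19.4, 18.6, 17.9 and 19.8 FPKM in G799R. The groups overlapped, and the log2 difference of −0.11 ± 0.07 did not pass as deposited (limma adjusted p = 0.165). Mrpl10 was called lower under median-of-ratios scaling (−0.28, limma adjusted p = 0.0116), quantile normalisation (−0.20, limma adjusted p = 0.0299) and glomerular marker scaling (−0.80, limma adjusted p = 0.000327). The difference between the responses of these stalk genes was not tested.

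Mrpl34 encodes a small protein of the large subunit that is related to bacterial L34. Its wild-type values of 22.2, 13.3, 14.2, 29.5 and 18.1 FPKM were widely spread, and its G799R values were 9.08, 11.2, 7.84, 6.41 and 7.82 FPKM. Every G799R library was below the lowest wild-type library. The log2 difference was −1.07 ± 0.20, a 2.29-fold fall (limma adjusted p = 0.00099).

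Mrpl50, a protein of the large subunit with no bacterial relative, had 16.2, 19.9, 19.1, 23.4 and 19.7 FPKM in wild type, and 11.998, 10.8, 11.3, 10.7 and 11.01 FPKM in G799R. Its G799R values were closely grouped below all wild-type values, and it fell 1.76-fold (log2 difference −0.76 ± 0.09, limma adjusted p = 3.1e-05). Mrpl28, the relative of bacterial L28, had 22.5, 23.3, 21.4, 26.2 and 25.8 FPKM in wild type, and 14.9, 16.2, 12.98, 12.9 and 12.7 FPKM in G799R. It fell 1.71-fold with no overlap between groups (−0.73 ± 0.08, limma adjusted p = 3.42e-05). Mrps35, a protein of the small subunit with no bacterial relative, was less abundant, at 5.14, 6.88, 6.30, 7.504 and 6.77 FPKM in wild type, and 3.72, 4.25, 3.74, 4.20 and 3.82 FPKM in G799R. The groups again did not overlap, and it fell 1.65-fold (−0.60 ± 0.09, limma adjusted p = 0.000312).

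At the other end of the range, the 5 highest differences belonged to proteins of the large subunit, and none passed the threshold. Mrpl52 had 21.6, 19.6, 26.4, 24.0 and 23.9 FPKM in wild type, and 19.8, 35.4, 26.9, 32.3 and 35.8 FPKM in G799R. G799R library 1 was below 4 of the wild-type libraries while the other G799R libraries were above all of them. The log2 difference was 0.34 ± 0.15 (limma adjusted p = 0.0672), and without G799R library 1 it was 0.48 and passed (limma adjusted p = 0.0037).

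Mrpl17, the relative of bacterial L17, had 27.3, 29.0, 24.9, 36.01 and 30.5 FPKM in wild type, and 33.99, 36.5, 32.9, 32.1 and 36.7 FPKM in G799R. All G799R libraries were above all wild-type libraries other than library 4, which lay within their range. The log2 difference was 0.22 ± 0.09 (limma adjusted p = 0.0509), and without wild-type library 4 it was 0.29 (limma adjusted p = 0.0065). Mrpl58, a peptidyl-tRNA hydrolase that has become a fixed part of the large subunit, differed by 0.17 ± 0.09 (limma adjusted p = 0.113) and by 0.23 without wild-type library 1 (limma adjusted p = 0.0298). Mrpl33 and Mrpl53 each differed by 0.13 (limma adjusted p = 0.28 and 0.36). The signs of these values depend on the scaling: all 5 were negative under glomerular marker scaling, and those of Mrpl33, Mrpl53 and Mrpl58 under median-of-ratios scaling also.

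**Figure D2:**
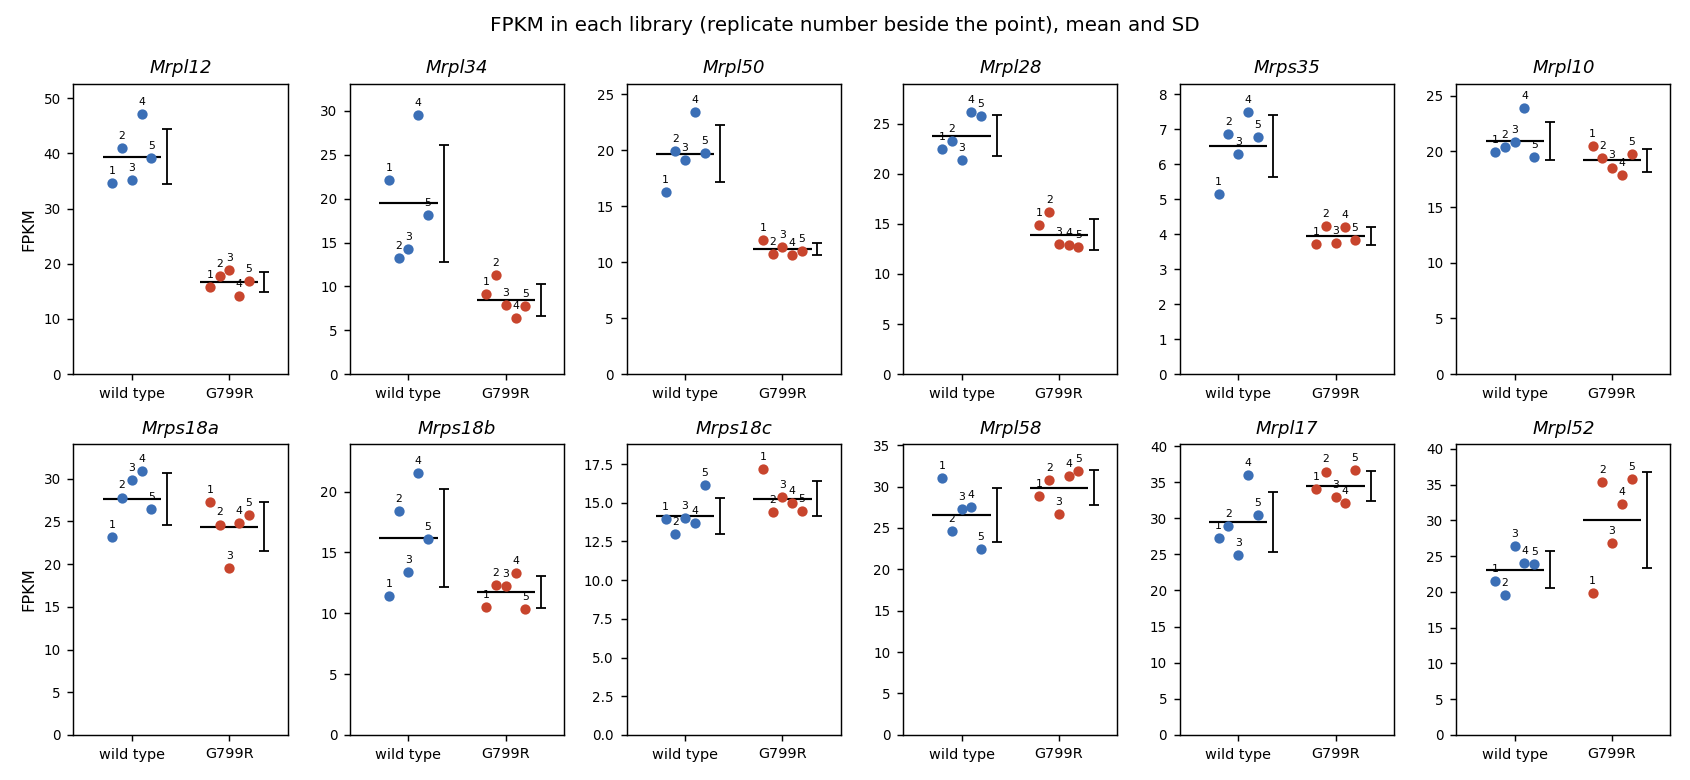
FPKM (vertical axis) in each library (points, with replicate numbers) for 12 genes in wild-type and G799R glomeruli, with the group mean as a line and the SD as a bar. Mrpl12 fell from 39.4 ± 5.06 to 16.7 ± 1.80 FPKM (SD, n = 5) with a gap between the groups, while Mrpl52 overlapped at 23.1 ± 2.59 and 30.0 ± 6.73 FPKM.

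Levels within the family spanned 2.76 to 49.6 FPKM in wild type, with a median of 17.0 FPKM in wild type and 14.7 FPKM in G799R. Genes were ordered by their mean over both genotypes, which a fall in G799R lowers. Mrpl42, a mitochondria-specific protein of the large subunit, had the highest level. Its values were 39.3, 48.6, 50.9, 56.7 and 52.3 FPKM in wild type and 32.4, 37.0, 33.3, 31.1 and 37.3 FPKM in G799R. It fell with no overlap between groups (−0.52 ± 0.10, limma adjusted p = 0.000874). Mrps21, the relative of bacterial S21, ranked below Mrpl24 by this mean and above it in wild type alone, and fell from 42.0 ± 6.30 to 30.6 ± 2.69 FPKM (−0.44 ± 0.11, limma adjusted p = 0.0046).

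Mrpl24, the relative of bacterial L24, ranked next to Mrpl42 by the mean over both genotypes but below Mrps21 in wild type alone (41.6 ± 2.84 FPKM), and did not pass as deposited. It had 46.6, 39.9, 40.2, 40.3 and 41.1 FPKM in wild type, and 40.1, 40.9, 40.4, 40.9 and 42.9 FPKM in G799R. Wild-type library 1 stood above all others, and the remaining libraries of both groups overlapped (−0.02 ± 0.06, limma adjusted p = 0.797). It was called lower under median-of-ratios scaling (−0.19, limma adjusted p = 0.00789) and glomerular marker scaling (−0.72, limma adjusted p = 3.76e-05). Mrps6, a protein of the small subunit platform, had 37.8 ± 8.37 and 29.1 ± 4.34 FPKM (−0.35 ± 0.15, limma adjusted p = 0.0628), and −0.47 without wild-type library 1 (limma adjusted p = 0.0084). Exons of Mrpl24 overlap those of Rrnad1, and exons of Mrps6 overlap those of Slc5a3, so fragments of either gene of such a pair may be counted for the other.

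By the mean over both genotypes, the 4 lowest levels belonged to Mrpl57, Mrps16, Mrpl19 and Mrps26. Mrpl57 had 2.76 ± 0.441 FPKM in wild type and 2.61 ± 0.290 FPKM in G799R, Mrps16 had 3.39 ± 0.715 and 3.06 ± 0.535 FPKM, and Mrpl19 had 3.27 ± 0.481 and 3.51 ± 0.477 FPKM. None of these 3 passed (limma adjusted p = 0.685, 0.508 and 0.527). Mrps26, a mitochondria-specific protein of the small subunit, fell from 3.96 ± 0.346 to 2.99 ± 0.348 FPKM (−0.32 ± 0.09, limma adjusted p = 0.0102). Its place among the 4 lowest comes in part from this fall, since levels were ordered by the mean over both genotypes.

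By subunit, 21 of 51 genes of the large subunit (41.2%) and 16 of 26 genes of the small subunit (61.5%) fell, and 0 rose in either. For all genes tested, 19.3% fell and 40.5% rose. The median log2 differences were −0.15 and −0.24. The remaining gene, Mrps36, is known as a subunit of the 2-oxoglutarate dehydrogenase complex and is not a ribosomal protein. It fell from 23.3 ± 2.42 to 16.0 ± 2.51 FPKM (−0.52 ± 0.11, limma adjusted p = 0.00163). The summed FPKM of the large subunit over that of the small subunit was 2.21 to 2.38 in wild type and 2.32 to 2.45 in G799R, and these ranges overlap. The difference between subunits was not tested.

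By origin, 23 of 46 genes classed with a bacterial relative fell (50%, median −0.22). Of 31 genes classed as mitochondria specific, 14 fell (45.2%, median −0.18), against 19.3% of all genes tested. Mrps18c was placed in the bacterial class and its paralogs Mrps18a and Mrps18b in the other, so the line between the classes is not strict. In the large subunit, 14 of 30 genes with a bacterial relative and 7 of 21 mitochondria-specific genes fell. In the small subunit the counts were 9 of 16 and 7 of 10. Each class held genes that fell and genes that did not.

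Among genes for proteins at the working sites of the ribosome, some fell and some did not pass. Mrpl2 and Mrpl3 belong to the core of the large subunit near the site where peptide bonds form. Mrpl2 fell from 21.1 ± 1.59 to 16.2 ± 1.82 FPKM (−0.36 ± 0.09, limma adjusted p = 0.00399), while Mrpl3 had 25.8 ± 3.46 and 23.4 ± 3.33 FPKM (−0.14 ± 0.11, limma adjusted p = 0.303). Mrpl45, which lies by the exit of the peptide tunnel and helps hold the ribosome at the inner membrane, had 8.12 ± 1.03 and 6.91 ± 0.902 FPKM (limma adjusted p = 0.106). Mrpl44, which has a fold related to ribonuclease III, had 13.4 ± 0.920 and 12.1 ± 0.892 FPKM (limma adjusted p = 0.121).

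In the small subunit, Mrps12 is part of the decoding centre. It had 11.04, 7.59, 7.95, 10.03 and 8.64 FPKM in wild type, and 8.01, 7.21, 6.72, 6.97 and 7.09 FPKM in G799R. It fell (−0.28 ± 0.10, limma adjusted p = 0.0293), but it did not pass when wild-type library 1 or 4 or G799R library 2, 3, 4 or 5 was left out (adjusted p from 0.0504 to 0.0691).

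Mrps7, the relative of bacterial S7 in the head of the small subunit, had 15.4, 16.4, 19.5, 19.4 and 19.1 FPKM in wild type, and 11.5, 12.6, 11.6, 11.8 and 11.7 FPKM in G799R. The groups did not overlap (−0.56 ± 0.08, limma adjusted p = 0.000122), and its exons overlap those of Gga3 and Mif4gd on the other strand. Mrps2 fell from 11.5 ± 0.730 to 9.22 ± 0.902 FPKM (−0.30 ± 0.08, limma adjusted p = 0.00716). Mrps22 and Mrps34 are genes in which inherited human variants cause mitochondrial disease. Mrps22 fell from 12.4 ± 1.204 to 8.76 ± 0.778 FPKM (−0.45 ± 0.08, limma adjusted p = 0.000789), and Mrps34 fell from 27.6 ± 3.29 to 22.2 ± 1.87 FPKM (−0.29 ± 0.09, limma adjusted p = 0.0157). Mrps34 shares exonic bases with Nme3 and Mapk8ip3. Without G799R libraries 3 and 4, Mrps34 did not pass (limma adjusted p = 0.0910). That fit has fewer G799R libraries and so less power, and 26 of the 38 genes called lower were also lower in it.

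Mrps27, a protein with pentatricopeptide repeats, is the 1 gene of the 21 without overlap that did not pass. It had 6.05, 6.46, 6.43, 6.43 and 5.80 FPKM in wild type, and 5.38, 5.70, 5.54, 5.39 and 5.77 FPKM in G799R. The gap between the groups was narrow (−0.14 ± 0.07, limma adjusted p = 0.0812).

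The Mrps18 genes are paralogs within the family. Mrps18c and Mrps18b encode proteins of the small subunit, and the product of Mrps18a sits in the large subunit. Mrps18a had 23.2, 27.8, 29.9, 30.9 and 26.5 FPKM in wild type, and 27.3, 24.6, 19.5, 24.8 and 25.8 FPKM in G799R. The groups overlapped (−0.18 ± 0.10, limma adjusted p = 0.146), and without wild-type library 1 the difference was −0.23 (limma adjusted p = 0.0498). Mrps18b had 11.4, 18.4, 13.4, 21.6 and 16.1 FPKM in wild type, and 10.5, 12.3, 12.2, 13.3 and 10.4 FPKM in G799R. Its wild-type libraries were widely spread and 1 of them lay within the G799R range, and it fell (−0.40 ± 0.15, limma adjusted p = 0.0335). That call was lost without wild-type library 2, 4 or 5 or G799R library 1 or 5 (adjusted p from 0.0611 to 0.0798) and with no filter on low values (adjusted p = 0.0502). Mrps18c had 13.9, 12.96, 14.0, 13.7 and 16.1 FPKM in wild type, and 17.2, 14.4, 15.4, 15.0 and 14.5 FPKM in G799R, with overlapping groups (0.10 ± 0.07, limma adjusted p = 0.239).

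The ratios between these paralogs were compared within libraries, which does not depend on scaling. Mrps18b over Mrps18c went from a mean log2 ratio of 0.16 ± 0.40 in wild type to −0.38 ± 0.22 in G799R (SD, n = 5). The difference was −0.54, with a two-sided exact permutation p of 0.0238 and 0.0714 after Benjamini-Hochberg adjustment over 3 ratios. Mrps18a over Mrps18c differed by −0.29 (exact p = 0.0794, adjusted 0.119), and Mrps18a over Mrps18b by 0.25 (exact p = 0.206, adjusted 0.206). None of the 3 ratios passed after adjustment, and the smallest p that 5 against 5 libraries allow is 0.00794.

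A pair of genes in the family lies head to head with overlapping exons. Mrpl46, of the large subunit, had 12.4, 9.99, 11.98, 16.3 and 12.8 FPKM in wild type, and 9.14, 10.7, 7.33, 8.97 and 8.53 FPKM in G799R. Its neighbour Mrps11, of the small subunit, had 11.1, 13.3, 11.96, 13.3 and 11.9 FPKM in wild type, and 10.5, 10.7, 9.65, 10.2 and 10.8 FPKM in G799R. Both fell, Mrpl46 by a log2 difference of −0.46 ± 0.12 (limma adjusted p = 0.00758) and Mrps11 by −0.22 ± 0.07 (limma adjusted p = 0.0152). Mrps11 showed no overlap between groups, and it did not pass without G799R libraries 3 and 4 (limma adjusted p = 0.0799).

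Mrpl36 overlaps Ndufs6, which encodes a subunit of respiratory complex I, on the other strand. Mrpl36 had 20.1, 19.0, 20.7, 20.4 and 19.2 FPKM in wild type, and 18.4, 21.9, 18.7, 22.6 and 21.2 FPKM in G799R. It did not pass (0.04 ± 0.07, limma adjusted p = 0.633), while Ndufs6 fell from 36.9 ± 5.50 to 22.5 ± 3.04 FPKM (−0.69 ± 0.12, limma adjusted p = 0.000595). The use of strand in the counting is not stated in the labels, so fragments in shared bases cannot be assigned. In all, exons of 33 of the 78 genes overlap those of another annotated gene, and for 23 that gene is protein-coding. Of these 23 genes, 7 fell, against 38 of all 78 (48.7%) and 19.3% of all genes tested.

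Summed over the family, FPKM was 1296, 1383, 1382, 1558 and 1472 in wild-type libraries 1 to 5, and 1158, 1218, 1163, 1225 and 1222 in G799R libraries 1 to 5. The groups did not overlap, with means of 1418 ± 100.04 and 1197 ± 33.95 (SD, n = 5 each) and a ratio of 0.844. As a share of all FPKM this was 0.395% to 0.473% in wild type and 0.345% to 0.366% in G799R. In wild type, library 1 had the lowest tubule score and the lowest sum, and was the lowest of its group for 36 of the 78 genes. Library 4 had the highest tubule score and the highest sum, and was the highest of its group for 34 genes. In G799R the order differed, since libraries 4 and 5 had the lowest tubule scores (3.59 and 3.71) and the highest sums. The part of the tubule signal in these sums was not tested.

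**Figure D3:**
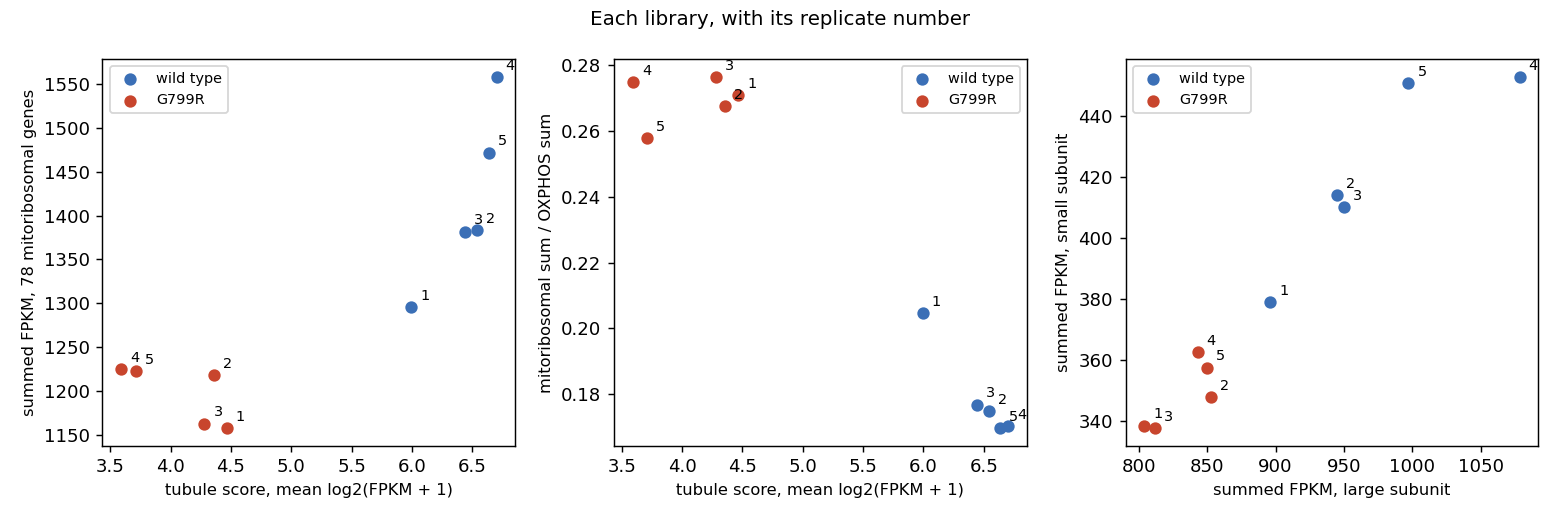
Each point is a library with its replicate number, coloured by genotype. The panels plot the family's summed FPKM against the tubule score, the ratio of the family's sum to the oxidative phosphorylation sum against the same score, and the summed FPKM of the small subunit against that of the large subunit. The family's sum is 1296 to 1558 in wild type and 1158 to 1225 in G799R, with no overlap.

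The nuclear genes for oxidative phosphorylation, whose products join those made by the mitochondrial ribosome, had larger differences. Of 74 tested, 72 fell (97.3%, against 19.3% of all genes tested) and 0 rose. Their median log2 difference was −0.77, against 38 of 78 falling and −0.22 for the ribosomal family. The exceptions were Ndufa7 (−0.02, limma adjusted p = 0.871) and Atp5e (−2.13 ± 1.12, limma adjusted p = 0.12), which was above 50 FPKM in 2 wild-type libraries and below 1 FPKM in all others. Summed FPKM of these genes went from 7977 ± 1072 to 4445 ± 215. The family's sum over the oxidative phosphorylation sum was 0.170 to 0.205 in wild type and 0.258 to 0.277 in G799R. These ranges do not overlap, and the ratio is independent of scaling between libraries.

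Of 76 ribosomal proteins of the cytosol tested, 8 rose (10.5%) and 0 fell, with a median of 0.08. Across all genes tested 40.5% rose and the median was 0.17, so this list lay below genes in general. The direction of the calls depends on scaling. Under median-of-ratios scaling 1 rose and 12 fell (all genes 25.5% lower), and under glomerular marker scaling 0 rose and 76 fell (all genes 67.5% lower). The median of the list lay below that of all genes under median-of-ratios scaling (−0.096 against 0.023), quantile normalisation (5.87e-05 against 0.128) and glomerular marker scaling (−0.63 against −0.45). The mitochondrial family's sum over the cytosolic sum was 0.111 to 0.141 in wild type and 0.0890 to 0.110 in G799R, with no overlap. Over the podocyte marker sum it was 0.337 ± 0.0476 in wild type and 0.165 ± 0.0199 in G799R. The podocyte marker sum itself rose from 4244 ± 282 to 7330 ± 809 FPKM, a ratio of 1.73. The family's sum had a ratio of 0.844.

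Transcripts of the mitochondrial genome, the templates of this ribosome, were measured for 4 of 15 listed genes. All 4 fell (median −1.60), against 19.3% of all genes tested. mt-Nd3, a complex I subunit, had 2345 ± 337 FPKM in wild type and 846 ± 64.3 FPKM in G799R (−1.46 ± 0.12, limma adjusted p = 3.7e-06). mt-Nd4l fell by 1.45 (limma adjusted p = 3.68e-06) and mt-Nd6 by 1.73 on the log2 scale (limma adjusted p = 5.55e-06). mt-Atp8, an ATP synthase subunit, fell by 2.06 on the log2 scale (limma adjusted p = 0.000273), and its wild-type library 1 stood at 4517 FPKM against 1252 to 1665 FPKM in the other 4.

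Translation factors of the mitochondrion were lower or not called, with 7 of 13 tested genes falling (53.8%), 0 rising and a median of −0.32. For all genes tested, 19.3% fell, 40.5% rose and the median was 0.17. Tufm, the elongation factor that brings aminoacyl-tRNA to the ribosome, had 38.4, 46.2, 44.7, 56.1 and 47.5 FPKM in wild type, and 23.2, 27.2, 22.2, 23.0 and 26.04 FPKM in G799R. Every G799R library was below every wild-type library (−0.90 ± 0.10, limma adjusted p = 1.96e-05). Gfm1, the factor that moves the ribosome along the mRNA, fell from 19.4 ± 2.54 to 12.3 ± 0.617 FPKM (−0.61 ± 0.09, limma adjusted p = 0.000136).

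Of 20 genes for charging mitochondrial tRNAs, 5 fell (25%, against 19.3% of all genes tested) and 1, Hars2, rose (5%, against 40.5%; 0.15, limma adjusted p = 0.0422). Gatb, a subunit of the amidotransferase that completes glutaminyl-tRNA, had 7.96, 10.2, 9.17, 13.4 and 10.6 FPKM in wild type, and 3.09, 4.33, 4.24, 3.57 and 4.12 FPKM in G799R. This 2.65-fold fall had no overlap between groups (−1.20 ± 0.13, limma adjusted p = 1.83e-05). Fars2, the phenylalanine enzyme, fell from 14.1 ± 1.66 to 8.33 ± 0.795 FPKM (−0.69 ± 0.09, limma adjusted p = 9.32e-05).

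Of 30 factors that assemble the mitochondrial ribosome, 9 fell (30.0%, against 19.3% of all genes tested) and 3 rose (10%, against 40.5%). The median of the list was 0.02, against 0.17 for all genes tested. Ngrn, which is needed for the RNA of the large subunit, had 15.6, 14.0, 13.9, 14.3 and 13.6 FPKM in wild type, and 19.8, 21.8, 19.8, 20.8 and 20.9 FPKM in G799R. It rose with no overlap between groups (0.50 ± 0.06, limma adjusted p = 3.63e-05), though its difference was −0.18 and not called under glomerular marker scaling. Gtpbp6 (0.40, limma adjusted p = 0.00324) and Dhx30 (0.27, limma adjusted p = 0.0148) were the other genes that rose. Afg3l2, a protease of the inner membrane that matures the ribosomal protein Mrpl32, fell from 27.8 ± 3.26 to 17.3 ± 1.54 FPKM (−0.65 ± 0.09, limma adjusted p = 0.000114).

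Of 24 genes for transcription of mitochondrial DNA and handling of its RNA, 9 fell (37.5%, against 19.3% of all genes tested). Another 4 rose (16.7%, against 40.5%), namely Elac2, Mtpap, Pnpt1 and Polg. Lrpprc, which stabilises mitochondrial mRNAs, fell from 19.7 ± 2.15 to 10.8 ± 0.683 FPKM (−0.81 ± 0.08, limma adjusted p = 1.32e-05). Hsd17b10, a subunit of mitochondrial ribonuclease P, fell from 40.5 ± 4.96 to 22.8 ± 1.51 FPKM (−0.80 ± 0.09, limma adjusted p = 2.74e-05). Of 5 ribosomal proteins that carry other symbols, 1 fell (20%, against 19.3% of all genes tested). This was Dap3, a GTP-binding protein of the small subunit (−0.31 ± 0.10, limma adjusted p = 0.0159), which did not pass without G799R libraries 3 and 4 (limma adjusted p = 0.0708). Gadd45gip1, of the large subunit, had 5.63 ± 1.90 and 4.09 ± 0.546 FPKM (−0.34 ± 0.19, limma adjusted p = 0.144), and without wild-type library 2 the difference was −0.49 (limma adjusted p = 0.0194).

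**Figure D4:**
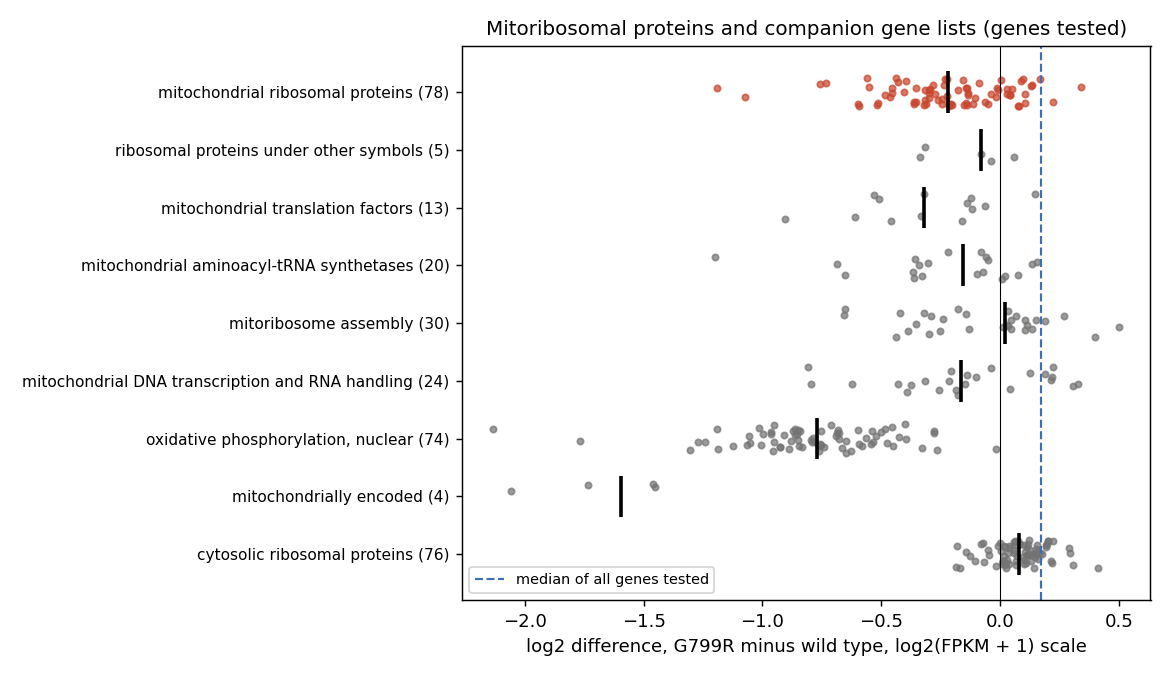
Log2 differences (G799R minus wild type) of the genes of each list, on the log2(FPKM + 1) scale (horizontal axis), with a point for each gene, a bar at the median of each list and a dashed line at the median of all genes tested, 0.17. The mitochondrial ribosomal proteins (median −0.22) lie between the nuclear oxidative phosphorylation genes (−0.77) and the cytosolic ribosomal proteins (0.08).

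The ETS motif shown in the promoter stretches was in 5 of 34 windows of genes that fell (14.7%) and in 13 of 41 windows of genes not called (31.7%), and the NRF1 motif in 8 of 34 and 9 of 41. In the windows of 300 bases these counts were 9 of 34 and 17 of 41 for ETS, and 11 of 34 and 9 of 41 for NRF1. The counts use whole windows, exons included, unlike the exon-free stretches shown, and 3 genes have more than 1 window. These shares are descriptions and their difference was not tested.

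With the tubule score as a covariate, limma called 0 of 13117 genes, 735 having an unadjusted p under 0.05. In that fit 4 of the 78 genes had an unadjusted p under 0.05, 3 lower and 1 higher, and the median SE rose from 0.0900 to 0.351. The median difference of the family was then −0.10.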

How the data were processed

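The authors deposited a table of FPKM values for 22053 Ensembl gene identifiers in 10 libraries. The tools were RSEM, StringTie 1.3.1, HISAT2, Bowtie2 2.2.8 and fastp 0.18.0, per the submitters' processing notes, which give no role or order. Build, annotation and strand setting: not given in the sources used here. Enriched mRNA from a TRIzol extraction was made into libraries with a NEBNext Ultra kit, per the labels' protocols. Columns were matched to libraries through the name in each library's label, with 0 columns left over. A symbol was available for 21963 identifiers. Positions are those of GENCODE M21 (GRCm38), which may not be the build of the authors. Libraries of a group correlated at 0.963 to 0.987, and 0 pairs were identical.

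FPKM is not a count and gives no depth, so no count model or counting interval was used. Values were transformed to log2(FPKM + 1), which understates changes of low genes. A mean of 0.5 FPKM or more was required, and limma 3.58.1 (trend, R 4.3.3) was fitted to the remaining 13117 genes with genotype as the only term, two-sided, adjusted over all genes by Benjamini-Hochberg at 0.05. Folds are ratios of mean FPKM. Alternatives were pseudocounts of 0.1 and 0.5, no filter, a filter of 2 FPKM, 3 scalings, limma without trend, the tubule score as covariate, the replicate number as a block, each library left out, and G799R libraries 3 and 4 left out.

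The members and lists were chosen with earlier results of these data known. Named genes were the 5 largest differences each way, the 4 highest and 4 lowest levels, the Mrps18 genes, 6 genes of well known role, the 2 smallest p of each companion list and the mitochondrially encoded genes. Mrps36, Mrps11, Mrpl46, Mrpl36, Ndufs6, Mrps27, Mrpl10, Mrpl45, Mrpl2, Mrpl3, Mrps7, Mrps2 and, by name as exceptions or risers within a list, Ndufa7, Atp5e, Hars2, Gtpbp6, Dhx30, Elac2, Mtpap, Pnpt1 and Polg were named after their values were seen. The test of the Mrps18 ratios and the motif search were also added then, and the NRF1 motif was shortened to its core after a longer form had been counted, which was in fewer windows of the family and of all genes. Mrpl47 and Mrpl55 were moved to the class with bacterial relatives after their values were seen.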

Additional observations from a re-analysis of the deposited data

Results flagged for a closer look

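Within groups of 5 libraries, 4 of 106 sets of values held a library flagged by Dixon's test. Its gap to the nearest other library, divided by the range of the set, exceeded the 95% critical value of 0.71. By chance about 1 in 20 sets is flagged. Mrpl24 stood at 46.6 FPKM in wild-type library 1, with the other wild-type libraries at 39.9 to 41.1 FPKM. Mrps7 had 12.6 FPKM in G799R library 2, against 11.5 to 11.8 FPKM in the others of its group. Gfm1 had 13.4 FPKM in the same library, against 11.8 to 12.2 FPKM. mt-Atp8 had 4517 FPKM in wild-type library 1, against 1252 to 1665 FPKM.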

How the results depend on the processing

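Pseudocounts, filters, limma without trend and leaving out G799R libraries 3 and 4 kept the family's counts and median within 1.5 times or 1 SD, with 26 to 38 genes lower. Median-of-ratios scaling gave 3055 genes higher and 3346 lower in all, against 5308 and 2537 as deposited, and a family median of −0.39. Quantile normalisation gave a family median of −0.28. Glomerular marker scaling gave 510 higher and 8857 lower in all, 77 of the family lower and a median of −0.88. Adding the tubule score to the model left 0 genes called, 0 higher and 0 lower, with 0 of the family lower and a median of −0.10 (the score and genotype cannot be told apart).

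Leaving out 1 library at a time gave 7010 to 8165 genes called, 4614 to 5580 higher and 2396 to 2585 lower, with 30 to 40 of the family lower, 0 to 1 higher and a median of −0.24 to −0.19. The 1 higher was Mrpl58 without wild-type library 1, Mrpl17 without wild-type library 4 and Mrpl52 without G799R library 1. Of the 38 genes called lower, 28 were also lower in every such fit, and Mrpl24 changed sign without wild-type library 1 (a range of −0.0344 to 0.0222 over these fits).

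After each gene's group mean was subtracted, same-numbered libraries of the groups correlated at −0.0846 to 0.0484. With 5 libraries per group, these values cannot show whether the numbers pair libraries, which the labels do not state. With the replicate block, 4937 genes were higher and 2451 lower, and 33 of the family were lower.

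Signs turned as follows. Median-of-ratios scaling gave Mrpl19 −0.0581, Mrpl33 −0.0364, Mrpl36 −0.13, Mrpl53 −0.0400, Mrpl58 −0.0025 and Mrps18c −0.0625, and quantile normalisation gave Mrpl36 −0.0519. Glomerular marker scaling gave Mrpl17 −0.47, Mrpl19 −0.48, Mrpl33 −0.55, Mrpl36 −0.64, Mrpl52 −0.35, Mrpl53 −0.55, Mrpl58 −0.52, Mrps18c −0.57 and Ngrn −0.18. The tubule covariate gave Afg3l2 0.11, Mrpl10 0.18, Mrpl19 −0.28, Mrpl3 0.27, Mrpl33 −0.35, Mrpl36 −0.35, Mrpl42 0.0453, Mrpl45 0.10, Mrpl52 −0.38, Mrpl58 −0.44, Mrps18a 0.0785, Mrps18b 0.29, Mrps26 0.0682, Mrps34 0.46 and Mrps6 0.15. Without G799R libraries 3 and 4, Mrpl53 was −0.0091 and Mrpl57 0.0166. The cause was not tested. Absolute depth is unknown, so limits set by depth could not be given.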
